A study of Mus musculus with 24 samples.

Results

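The genes described here encode subunits of the receptors for glutamate and GABA, the main excitatory and inhibitory transmitters of the brain. A list of 32 such genes was matched to the gene symbols of the array, and each symbol was represented by its probe set of highest mean signal. The match found 31 of the 32 genes among 22180 named genes, 20 of them for glutamate receptors and 11 for GABA receptors. Grin1 was not analysed here. The match of symbols used no measured value, while the choice of probe set used the mean signal. The list itself was chosen with earlier results of these data known.

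Cortical expression was measured on 24 arrays, each from 1 male mouse aged 18 days. Mice of the strains SV129, FVB, C57BL/6JOlaHsd (C57 in the sample names) and C3H received conduritol B-epoxide (CBE) or phosphate-buffered saline (PBS). CBE inhibits the lysosomal enzyme glucocerebrosidase and serves as a chemical model of neuronopathic Gaucher disease. It was given intraperitoneally at 25 mg per kg per day from day 8 to day 18, and the PBS mice were the healthy controls. Each of the 8 groups of strain and agent held 3 mice. The labels name no engineered allele, so the model is an enzyme inhibitor given at 1 dose over 1 period. The labels give 1 array per numbered mouse, without litters or dates. All values are log2 signal, and a change is the CBE mean minus the PBS mean on that scale. Signals of different probe sets do not share a scale, so levels are compared between arrays for 1 gene at a time. In whole tissue, fewer cells of a type and less RNA per cell cannot be told apart.

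Glutamate acts on AMPA, NMDA and kainate receptors, which are ion channels built from several subunits, and on metabotropic receptors, which signal through G proteins. AMPA receptors carry most fast excitatory transmission, NMDA receptors admit calcium and are needed for many forms of plasticity, and kainate receptors adjust excitability and release. GABA-A receptors are chloride channels of alpha, beta and gamma or delta subunits, and the subunit mix sets where the channel sits and how it responds to drugs. GABA-B receptors couple to G proteins and need both of their subunits to reach the cell surface. In the rodent cortex the subunit mix of NMDA and GABA-A receptors still shifts during the weeks after birth.

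Gabrg1, which encodes the gamma-1 subunit of GABA-A receptors, was the only 1 of the 31 subunit genes whose mean change over the 4 strains passed the threshold, and it fell. Its gene lies on chromosome 5 in a cluster of GABA-A subunit genes, where the RefSeq order is Gabrg1, Gabra2, Cox7b2, Gabra4 and Gabrb1. The 250 bases before the annotated starts of Gabrg1 and of its neighbour Gabra2 are shown because Gabrg1 passed and Gabra2, Gabra4 and Gabrb1 did not. They are RefSeq sequences of build GRCm38.p6, printed 5′ to 3′ along the gene, at chr5:70842618-70842867 on the minus strand for Gabrg1 and chr5:71095850-71096099 on the minus strand for Gabra2. Capitals mark a GC box, GGGCGG, on either strand.
Gabrg1: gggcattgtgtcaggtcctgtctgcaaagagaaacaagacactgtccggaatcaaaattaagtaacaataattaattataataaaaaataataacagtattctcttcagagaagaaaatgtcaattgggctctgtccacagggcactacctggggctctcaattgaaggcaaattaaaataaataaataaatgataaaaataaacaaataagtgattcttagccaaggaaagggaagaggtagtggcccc
Gabra2: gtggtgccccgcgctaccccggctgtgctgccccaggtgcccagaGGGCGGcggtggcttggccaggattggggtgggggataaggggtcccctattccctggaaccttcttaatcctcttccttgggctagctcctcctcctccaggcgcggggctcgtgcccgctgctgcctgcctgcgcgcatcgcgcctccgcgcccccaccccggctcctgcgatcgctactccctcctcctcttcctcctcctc

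The Gabrg1 window was rich in A and T. Its GC content was 35.6%, at percentile 5.41 of the 32851 windows of all genes, whose median was 52.4%. It held 1 CpG, against 18 in the Gabra2 window, where GC was 70%. No GC box was found in the Gabrg1 window and 1 in that of Gabra2. This motif, searched on both strands, was present in 32.7% of all windows. The cAMP response element TGACGTCA and the TATA box TATAAA, also searched on both strands, had no match in either window. They were present in 1.55% and 12.4% of all windows. A window was listed for 23 of the 32 genes. The traits of the Gabrg1 window were also seen in genes that did not pass for CBE. The windows of Gabrb1, in the same cluster, held 0 GC boxes, at 64.4% and 50.8% GC. A Gabrb2 window had 36.8% GC, at percentile 6.74, and the Gabra3 windows had 39.2% and 42.4%.

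In SV129 mice the Gabrg1 signal was 8.76, 8.72 and 8.37 on the PBS arrays and 7.97, 8.19 and 8.16 on the CBE arrays. In FVB it was 8.65, 8.72 and 8.65 with PBS and 8.37, 8.16 and 8.46 with CBE. In both strains every CBE array lay below every PBS array. In C57 the signal was 8.23, 8.12 and 8.28 with PBS and 7.92, 7.96 and 8.17 with CBE. In C3H it was 8.40, 8.47 and 8.56 with PBS and 8.46, 8.17 and 8.63 with CBE. The groups overlapped in these 2 strains, in C57 through 1 CBE array and in C3H over most of the range. Of the 12 CBE arrays, 11 lay below the PBS mean of their strain.

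**Figure D1:**
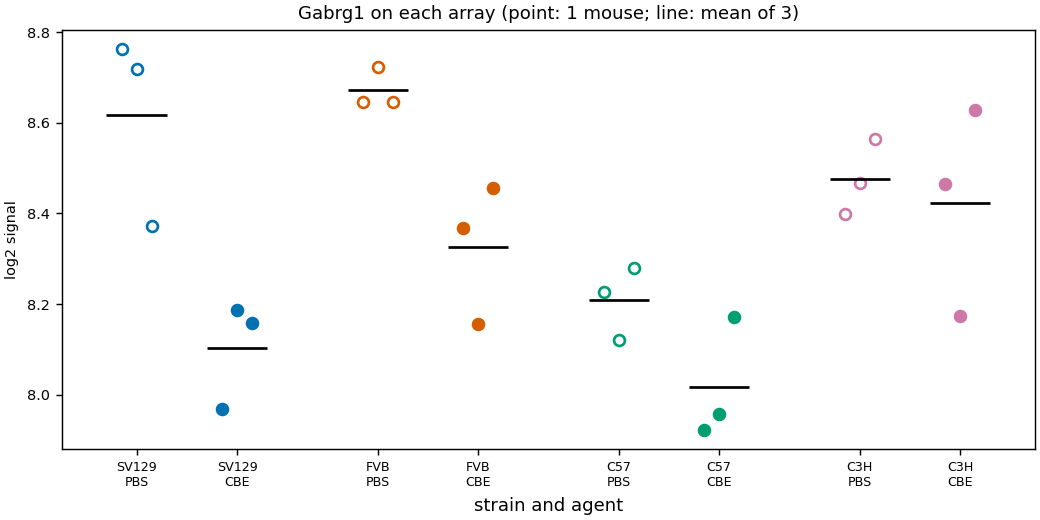
Gabrg1 log2 signal on each of the 24 arrays (y axis) by strain and agent (x axis). Open points are PBS mice, filled points are CBE mice and lines are means of 3. The CBE points lie below all PBS points in SV129 and FVB and overlap them in C57 and C3H.

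The mean change of Gabrg1 over the 4 strains was -0.28 ± 0.057 (standard error of the fit, 95% interval -0.39 to -0.16), with an adjusted p of 0.0162 in limma. On the linear scale the CBE signal was 82.6% of the PBS signal. By strain the change was -0.51 for SV129, -0.35 for FVB, -0.19 for C57 and -0.055 for C3H, each ± 0.11. No single-strain change of Gabrg1 passed the threshold in limma, with adjusted p of 0.0659 (SV129), 0.538 (FVB), 0.936 (C57) and 1 (C3H). The F-test of equal changes in the 4 strains gave an adjusted p of 0.757 in limma, so a difference between strains was not shown. The call did not hold under every setting. Over FVB, C57 and C3H alone the mean change was -0.20 with an adjusted p of 0.337 in limma. Quantile normalization of the arrays gave -0.25 with an adjusted p of 0.0581, and an ordinary linear model without shared variances gave an adjusted p of 0.052. With any 1 of the 24 arrays left out, the adjusted p stayed between 0.00384 and 0.0407.

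Of all 22180 genes, 161 passed the threshold for the mean of 4 strains, 0.726%, and 0.117% passed as lower. The 1 of 31 subunit genes stands beside that background. At an unadjusted p under 0.05, 6 of the 31 subunit genes passed, all of them lower, which is 19.4% of the list. Among all genes 10.7% passed at that level and 6.77% passed as lower. The 6 were Gabrg1, Grik2, Grm8, Gria4, Gabra5 and Gabrg3. The median change was -0.038 for the 31 subunit genes and -0.0083 for all genes. Lower values were seen in 21 of 31 subunit genes, 67.7%, and in 55.6% of all genes.

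**Figure D2:**
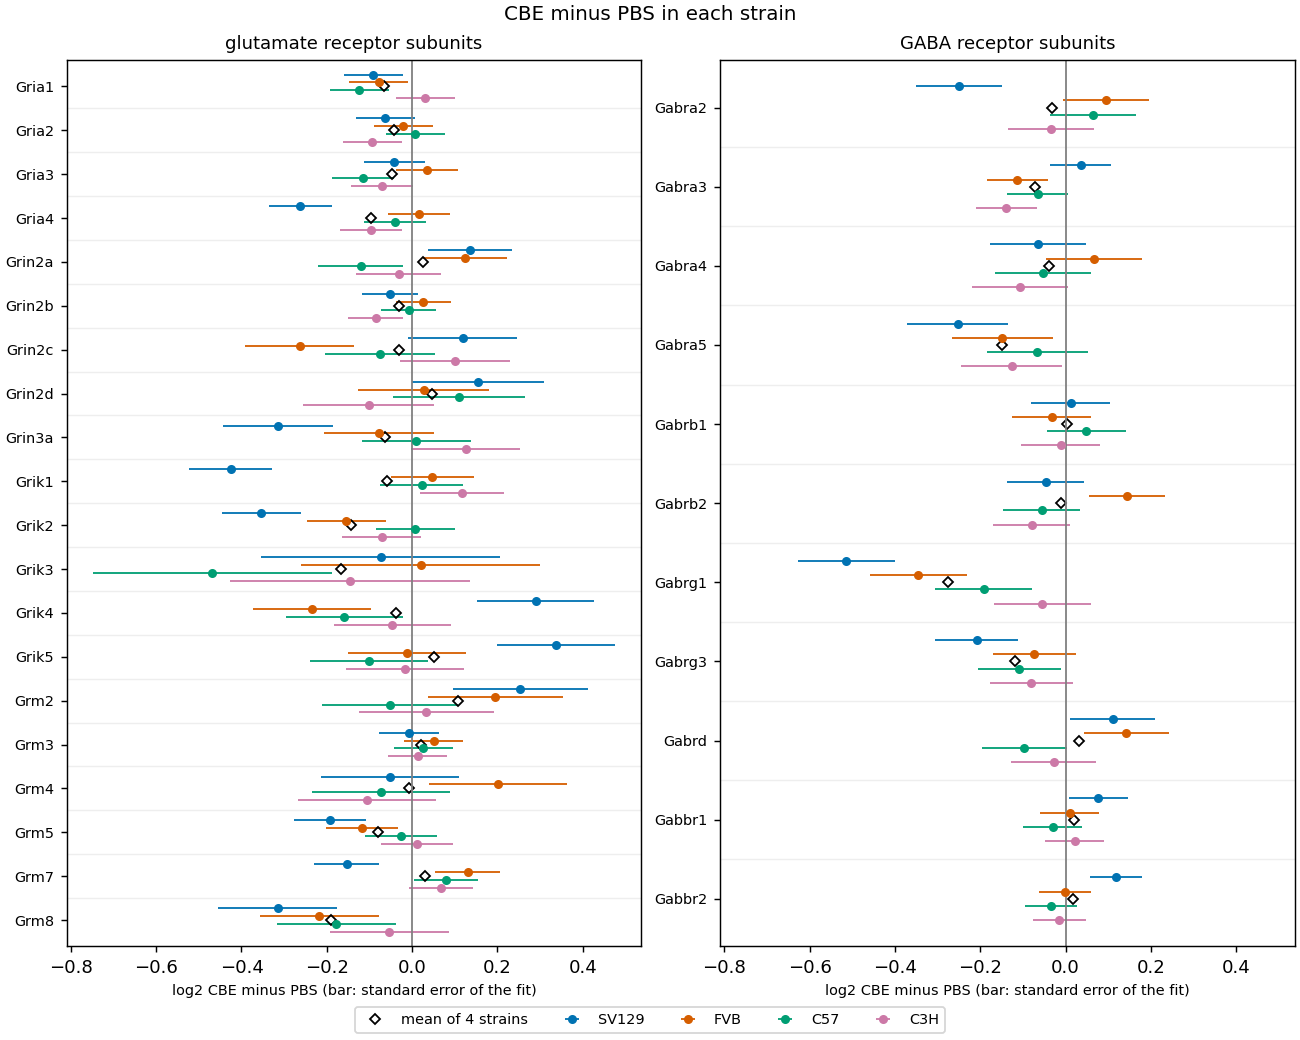
CBE minus PBS on the log2 scale (x axis) for the 20 glutamate and 11 GABA receptor subunit genes (y axis). Coloured points are the 4 strains with the standard error of the fit, and open diamonds are the mean of 4 strains. Gabrg1 has the lowest mean, -0.28, and outside SV129 no other gene of the list has an unadjusted p under 0.05 in a single strain.

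The AMPA receptor genes were each slightly lower in the mean of 4 strains, and none passed the threshold. These 4 genes encode the pore-forming subunits, of which Gria2 governs calcium entry. Their mean changes ran from -0.096 for Gria4 to -0.042 for Gria2, with the smallest adjusted p at 0.313 in limma. PBS means of Gria2 ran from 11.92 in FVB to 12.07 in C57, and their F-test had an adjusted p of 0.436 in limma. In C3H, Gria2 was 12.01, 11.95 and 12.14 with PBS and 12.06, 11.83 and 11.93 with CBE, overlapping groups. Its change there was -0.093 ± 0.069, the second smallest p of the list in that strain, with an adjusted p of 1 in limma. In C57 the 3 CBE arrays of Gria1, at 10.50, 10.52 and 10.42, all lay below the 3 PBS arrays, at 10.63, 10.62 and 10.55. That change was -0.12 ± 0.069, with an adjusted p of 0.921 in limma.

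Gria4 was the AMPA gene with the largest change in SV129. Its SV129 signal was 9.79, 9.97 and 9.96 with PBS and 9.60, 9.57 and 9.77 with CBE. The CBE arrays lay below the PBS arrays by a narrow margin. The change was -0.26 ± 0.073 with an adjusted p of 0.129 in limma. Without SV129 PBS array 1, the lowest of the PBS arrays, it was -0.32 with an adjusted p of 0.0484. In the other strains the change of Gria4 ran from -0.097 in C3H to 0.016 in FVB.

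None of the 5 NMDA receptor genes measured passed the threshold in any CBE comparison. Grin2a and Grin2b encode the main glutamate-binding subunits of cortical NMDA receptors. PBS means across strains ran from 9.56 to 9.87 for Grin2a and from 10.67 to 10.84 for Grin2b. Their mean changes were 0.027 ± 0.050 and -0.030 ± 0.033. Grin2c and Grin2d, whose products are more abundant outside the cortical pyramidal cells, had PBS means of 5.76 to 6.01 and 5.36 to 5.60. Grin2c had the second largest change of the list in FVB, where the signal was 6.13, 6.19 and 5.72 with PBS and 5.56, 5.88 and 5.80 with CBE. The groups overlapped through 1 PBS array, and the change of -0.26 ± 0.13 had an adjusted p of 0.804 in limma. Grin3a, which encodes a glycine-binding subunit that lowers calcium entry, was 8.43, 7.92 and 8.00 with PBS and 7.79, 7.99 and 7.62 with CBE in SV129. The groups overlapped there, and the change of -0.31 ± 0.13 had an adjusted p of 0.289 in limma.

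Among the 5 kainate receptor genes, Grik1 and Grik2 were lower in SV129 mice given CBE, and neither change passed the threshold. Both encode subunits that can form channels by themselves, whereas the products of Grik4 and Grik5 need a partner. Grik1 was 6.37, 6.43 and 6.31 with PBS and 6.10, 5.83 and 5.90 with CBE in SV129. All CBE arrays lay below all PBS arrays, and the change was -0.42 ± 0.097 with an adjusted p of 0.0816 in limma. In the other strains the changes were 0.048 (FVB), 0.023 (C57) and 0.12 (C3H). In FVB Grik1 was 6.13, 6.11 and 6.08 with PBS and 6.12, 6.18 and 6.16 with CBE. In C57 it was 6.21, 6.01 and 6.13 with PBS and 6.19, 6.31 and 5.93 with CBE, and in C3H 6.20, 5.97 and 5.91 with PBS and 6.18, 6.26 and 6.00 with CBE. PBS and CBE arrays overlapped in these 3 strains.

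Grik1 was the only 1 of the 31 subunit genes with an unadjusted p under 0.05 in the F-test of equal changes in the 4 strains. Of all genes 6.57% had such a p. Its adjusted p was 0.537 in limma. None of the 31 passed that test, beside 2 of all genes, 0.00902%, and an ordinary linear model also called 0. The change in SV129 minus that in C3H was -0.54 ± 0.14 for Grik1, the largest of its 3 differences between SV129 and another strain, with an adjusted p of 0.44 in limma.

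Grik2, taken up here after its values were seen, was 8.82, 8.48 and 8.69 with PBS and 8.34, 8.32 and 8.27 with CBE in SV129. The CBE arrays lay below the PBS arrays. The change was -0.35 ± 0.093 with an adjusted p of 0.115 in limma. Its changes elsewhere were -0.15 (FVB), 0.0072 (C57) and -0.071 (C3H), and the mean over strains was -0.14 ± 0.046 with an adjusted p of 0.221. Grik4 and Grik5 were higher in SV129, at 0.29 ± 0.14 and 0.34 ± 0.14, with overlapping groups and adjusted p of 0.375 and 0.295 in limma. Grik3 had the largest change of the list in C57 and in C3H, with a wide error in both. In C57 it was 8.79, 8.45 and 8.13 with PBS and 8.09, 8.64 and 7.24 with CBE, with 1 CBE array far below the rest. That change was -0.47 ± 0.28 with an adjusted p of 0.944 in limma. In C3H Grik3 was 8.55, 8.49 and 8.15 with PBS and 8.15, 8.58 and 8.03 with CBE, a change of -0.15 ± 0.28.

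**Figure D3:**
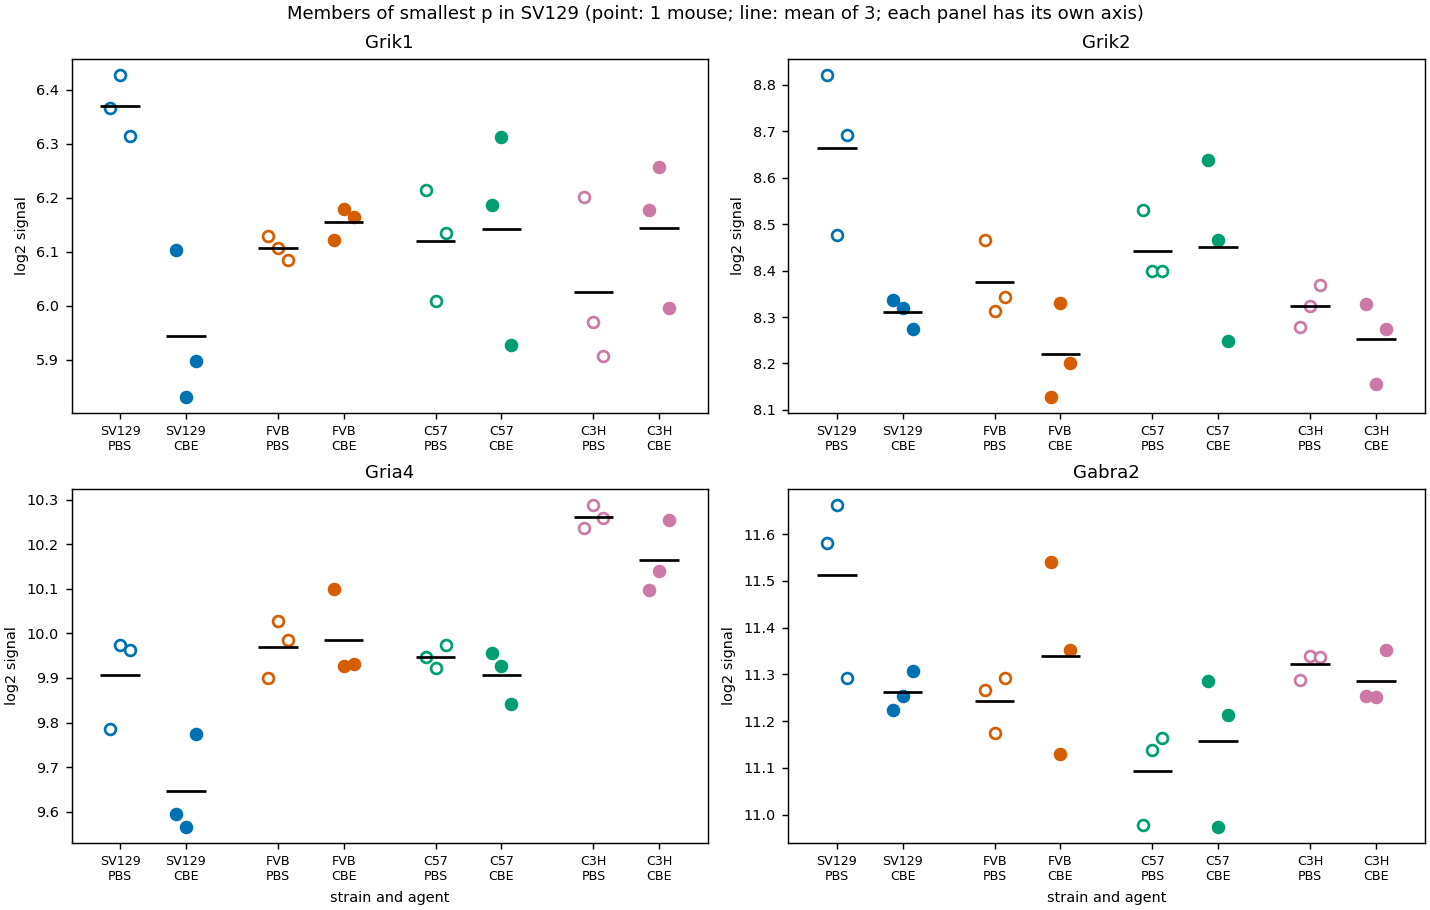
Log2 signal on each array (y axes, 1 scale per panel) for Grik1, Grik2, Gria4 and Gabra2 by strain and agent (x axes). Open points are PBS mice, filled points are CBE mice and lines are means of 3. In SV129 the CBE points of Grik1, Grik2 and Gria4 lie below all PBS points, and those of Gabra2 overlap them.

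No metabotropic glutamate receptor gene passed the threshold for CBE. Grm5, which couples to calcium release, had PBS means of 9.48 to 9.67, and its CBE arrays lay below its PBS arrays in SV129 and in FVB. Its changes there were -0.19 ± 0.084 and -0.12 ± 0.084, with adjusted p of 0.324 and 0.893 in limma. Grm8, a receptor found mainly on nerve terminals, was lower in all 4 strains, with changes of -0.32 (SV129), -0.22 (FVB), -0.18 (C57) and -0.053 (C3H). Its mean change was -0.19 ± 0.070 with an adjusted p of 0.289 in limma, at PBS means of 5.24 to 5.36. Grm3, which astrocytes as well as neurons make, had a mean change of 0.021 ± 0.035 at PBS means of 10.29 to 10.52. Grm4 had a mean change of -0.0076 ± 0.081. Grm2, a presynaptic receptor, had PBS means of 9.15 to 9.61 and a mean change of 0.11 ± 0.080. Its signal in SV129 PBS mice was 8.56, 9.45 and 9.44, so array 1 lay apart. Grm7 changed by 0.031 ± 0.038 in the mean of 4 strains.

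Among the other GABA-A subunit genes no change passed the threshold. Gabra5, whose subunit serves mostly extrasynaptic receptors, was lower in all 4 strains, with changes of -0.25 (SV129), -0.15 (FVB), -0.066 (C57) and -0.13 (C3H). Its mean change was -0.15 ± 0.059 with an adjusted p of 0.35 in limma, and 11 of 12 CBE arrays lay below the PBS mean of their strain. Gabrg3, another gamma subunit, was also lower in all 4 strains, with a mean change of -0.12 ± 0.049 and an adjusted p of 0.372. Its highest PBS mean was 9.24, in SV129. Gabra3 had the smallest p of the list in C3H, where it was 10.66, 10.42 and 10.58 with PBS and 10.46, 10.40 and 10.38 with CBE. The groups overlapped through 1 array of each, and the change was -0.14 ± 0.071 with an adjusted p of 1 in limma.

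Gabra2, next to Gabrg1 on chromosome 5, was 11.58, 11.66 and 11.29 with PBS and 11.22, 11.25 and 11.31 with CBE in SV129. The groups overlapped because PBS array 3 lay at the level of the CBE arrays. The change was -0.25 ± 0.10 with an adjusted p of 0.282 in limma, and in the other strains it ran from -0.035 in C3H to 0.096 in FVB. Gabra4 and Gabrb1, in the same cluster, had mean changes of -0.040 ± 0.057 and 0.0041 ± 0.046. The 95% interval of Gabrb1 ran from -0.096 to 0.10, which does not reach the change of Gabrg1. Gabrb2 changed by -0.0096 ± 0.045 and Gabrd, the subunit of tonic receptors, by 0.032 ± 0.050. PBS means were 10.86 to 11.07 for Gabra4, 9.57 to 9.88 for Gabrb1, 10.69 to 10.82 for Gabrb2 and 7.24 to 7.44 for Gabrd.

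The GABA-B genes had mean changes close to 0. Gabbr1, which binds GABA, had PBS means of 11.31 to 11.35 and changed by 0.019 ± 0.035. Gabbr2, which couples to the G protein, had PBS means of 11.78 to 11.99 and changed by 0.017 ± 0.031. In SV129 the 3 CBE arrays of Gabbr2 lay above the 3 PBS arrays, with a change of 0.12 ± 0.061 and an adjusted p of 0.427 in limma. Their 95% intervals for the mean of 4 strains, -0.053 to 0.091 and -0.046 to 0.081, were among the narrowest of the list.

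Strain by strain, none of the 31 subunit genes passed the threshold for CBE in limma, and an ordinary linear model also called 0 in each strain. In SV129, 25 of all genes passed, 0.113%. At an unadjusted p under 0.05, 12 subunit genes passed there, 10 of them lower and 2 higher, beside 13.0% of all genes, 8.66% as lower and 4.35% as higher. The 10 lower genes were Gria4, Grin3a, Grik1, Grik2, Grm5, Grm8, Gabra2, Gabra5, Gabrg1 and Gabrg3, and the 2 higher ones were Grik4 and Grik5. In 5 subunit genes all CBE arrays lay below all PBS arrays in SV129, and in 1 gene above, where 8.99% and 6.52% of all genes did so. The 5 were Gabrg1, Grik1, Grik2, Gria4 and Grm5.

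The count in SV129 moved with the scaling. Array medians in SV129 were 4.14 to 4.17 with PBS and 4.19 to 4.22 with CBE. With each array centred on its median, Gabrg1, Grik1 and Grik2 passed the threshold in SV129, with adjusted p of 0.032, 0.0312 and 0.0426 in limma, and 143 of all genes did. The centring lowered the median SV129 change of all genes by 0.053. Gabrg1 also passed in SV129 with probe sets of low mean signal left out (adjusted p 0.0493), without SV129 PBS array 3 (0.0241) and without C3H CBE array 2 (0.0492), which enters through the shared spread.

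In FVB 0 of 31 subunit genes passed, beside 30 of all genes, 0.135%. Gabrg1 was the only subunit gene there with an unadjusted p under 0.05, beside 6.27% of all genes. In FVB 2 subunit genes had all CBE arrays below all PBS arrays, Gabrg1 and Grm5, where 5.96% of all genes did, and 3 had them above, Grm2, Grm7 and Gabrd, where 5.09% did. In C57 none passed, beside 72 of all genes, 0.325%, and none had an unadjusted p under 0.05, where 5.78% of all genes did. All CBE arrays lay below all PBS arrays there for Gria1, Gria3 and Gabra3 and above for Gabrb1, beside 7.22% and 5.82% of all genes. In C3H none passed, beside 8 of all genes, 0.0361%, and again none had an unadjusted p under 0.05, where 5.02% of all genes did. All CBE arrays lay below all PBS arrays there for Gabrb2, beside 5.17% of all genes, and above for none, beside 4.50%. Values were lower with CBE for 20 subunit genes in SV129, beside 50.7% of all genes, and for 15 in FVB, beside 54.6%. They were lower for 22 in C57, beside 54.9% of all genes, and for 22 in C3H, beside 52.6%.

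Marker lists of cell types and regions were read beside these results. The list of excitatory cortical neurons lay between 8.98 and 9.30 on all arrays, and the cerebellum list between 3.71 and 4.18, near or below the median of all probe sets, 4.18. In SV129 the mean of the 11 thalamus markers was 5.89 to 5.97 with PBS and 5.72 to 5.77 with CBE, without overlap. Ntng1, a guidance molecule of thalamic axons, fell there by 0.82 (adjusted p 0.01 in limma), and it was the only 1 of the 11 past the threshold. Slc17a6, the glutamate transporter of thalamic terminals and also 1 of the 11, changed by -0.85 with an adjusted p of 0.0659, the lowest change of the list. Of the 11 thalamus markers 9 were lower in SV129 and 2 higher, with a median change of -0.10 and a highest change of 0.27. At an unadjusted p under 0.05 in limma, 2 of the 11 were lower, Ntng1 and Slc17a6, and 1 was higher. The part of the thalamus markers in the lower SV129 values of Gabrg1, Grik1, Grik2 and Gria4 was not tested. In FVB, where Gabrg1 did not overlap either, the thalamus list was 5.75 to 5.80 with PBS and 5.72 to 5.81 with CBE. All 6 striatum markers were lower in the mean of 4 strains, with a median change of -0.146. There 0 passed in limma and 2 had an unadjusted p under 0.05. In FVB 5 of the 6 were lower. The striatum list was 5.81 to 6.71 with PBS there, where the 6.71 was PBS array 1, and 5.78 to 5.87 with CBE. Its part in the fall of Gabrg1 was not tested.

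The 15 immediate-early genes, which respond to neuronal activity, had mean signals of 6.47 to 7.42 with PBS and 5.88 to 6.33 with CBE in SV129. All 15 were lower and 1 passed, Nr4a3, which fell by 1.24 (adjusted p 0.0436 in limma). Their part in the SV129 values of the subunit genes was not tested. The 5 hippocampus markers lay at 5.10 to 5.33 with PBS and 5.32 to 5.51 with CBE in SV129. The 10 interneuron markers lay at 7.89 to 8.30 with PBS and 8.16 to 8.33 with CBE in SV129, where the 7.89 was PBS array 1. None of the 10 passed in the mean of 4 strains in limma, and 1 had an unadjusted p under 0.05. All 8 astrocyte markers were higher in the mean of 4 strains. Of them 1 passed the threshold, Gfap, with a change of 1.15 (adjusted p 2.81e-05 in limma), and 2 had an unadjusted p under 0.05. All 6 microglia markers were also higher in that mean. Here 1 passed, Csf1r, with a change of 0.29 (adjusted p 0.0334 in limma), and 4 had an unadjusted p under 0.05.

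The mean signal of the astrocyte list in SV129 was 8.60 to 8.89 with PBS and 8.86 to 8.98 with CBE, overlapping ranges. It was 8.77 to 8.93 and 9.02 to 9.03 in FVB. The C57 arrays held 8.87 to 8.90 and 9.05 to 9.19, and the C3H arrays 8.78 to 8.93 and 8.96 to 9.24. In these 3 strains every CBE array lay above every PBS array. The single markers were mixed: 5 of the 8 were lower with CBE in FVB and 5 in C57, with median changes of -0.0055 and -0.013. The largest changes there were 1.32 in FVB and 1.43 in C57. All 8 were higher in C3H, with a median change of 0.069, and 7 in SV129. The microglia list in SV129 was 6.51 to 6.92 with PBS and 6.66 to 6.84 with CBE. It was 6.79 to 6.93 and 7.06 to 7.14 in FVB. The C57 arrays held 6.78 to 6.99 and 7.05 to 7.18, and the C3H arrays 6.85 to 7.04 and 7.01 to 7.65. For this list the ranges overlapped in SV129 and C3H and not in FVB and C57. The part of these lists in the fall of Gabrg1 was not tested.

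**Figure D4:**
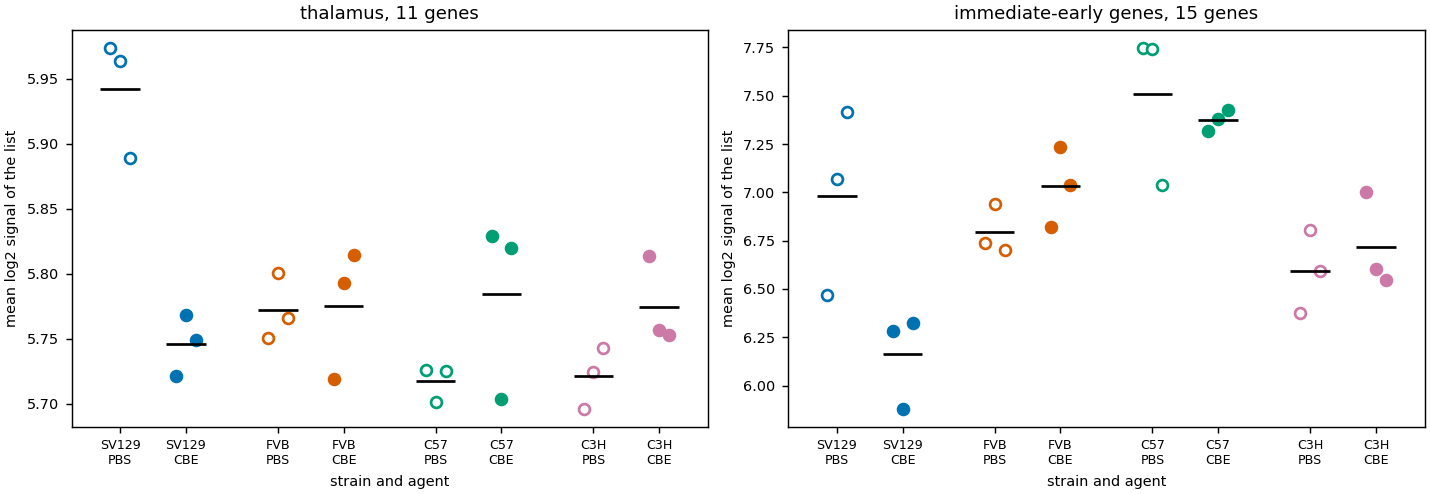
Mean log2 signal of 11 thalamus markers and 15 immediate-early genes (y axes) on each array by strain and agent (x axes). Open points are PBS mice, filled points are CBE mice and lines are means of 3. In both panels the SV129 CBE points lie below all SV129 PBS points, and in the other strains the thalamus points stay between 5.70 and 5.83.

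The strains differed in the PBS mice for more subunit genes than passed for CBE. In the F-test of the 4 PBS groups 9 of 31 subunit genes passed the threshold in limma, beside 2883 of all genes, 13.0%. At an unadjusted p under 0.05 the counts were 16 of 31 and 26.0% of all genes. The 9 were Gria1, Gria3, Gria4, Grin3a and Grm7 for glutamate and Gabra2, Gabra3, Gabra5 and Gabrg1 for GABA. Between pairs of strains the share of all genes past the threshold was 3.88% for SV129 and FVB, 7.72% for SV129 and C57, and 2.34% for SV129 and C3H. It was 7.91% for FVB and C57, 2.28% for FVB and C3H, and 6.70% for C57 and C3H. The SV129 PBS mice enter these tests and the SV129 changes above alike. Sequence differences between strains under the probes can alter a signal without a change in RNA, and this was not tested. Some marker lists also differed between the PBS groups. Of 7 oligodendrocyte markers 5 passed the F-test in limma, and of 6 microglia markers 0 did. All 7 were higher in FVB than in C3H, by a median of 1.22. Their mean ran from 7.64 on C3H PBS array 3 to 9.55 on FVB PBS array 1. Of 11 thalamus markers 3 passed the F-test in limma, of 6 striatum markers 2 and of 8 astrocyte markers 2. The thalamus list was 5.89 to 5.97 on the SV129 PBS arrays, above the 5.70 to 5.80 on the PBS arrays of the other strains. The part of the cell mix and of these lists in the strain differences of the subunit genes was not tested.

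**Figure D5:**
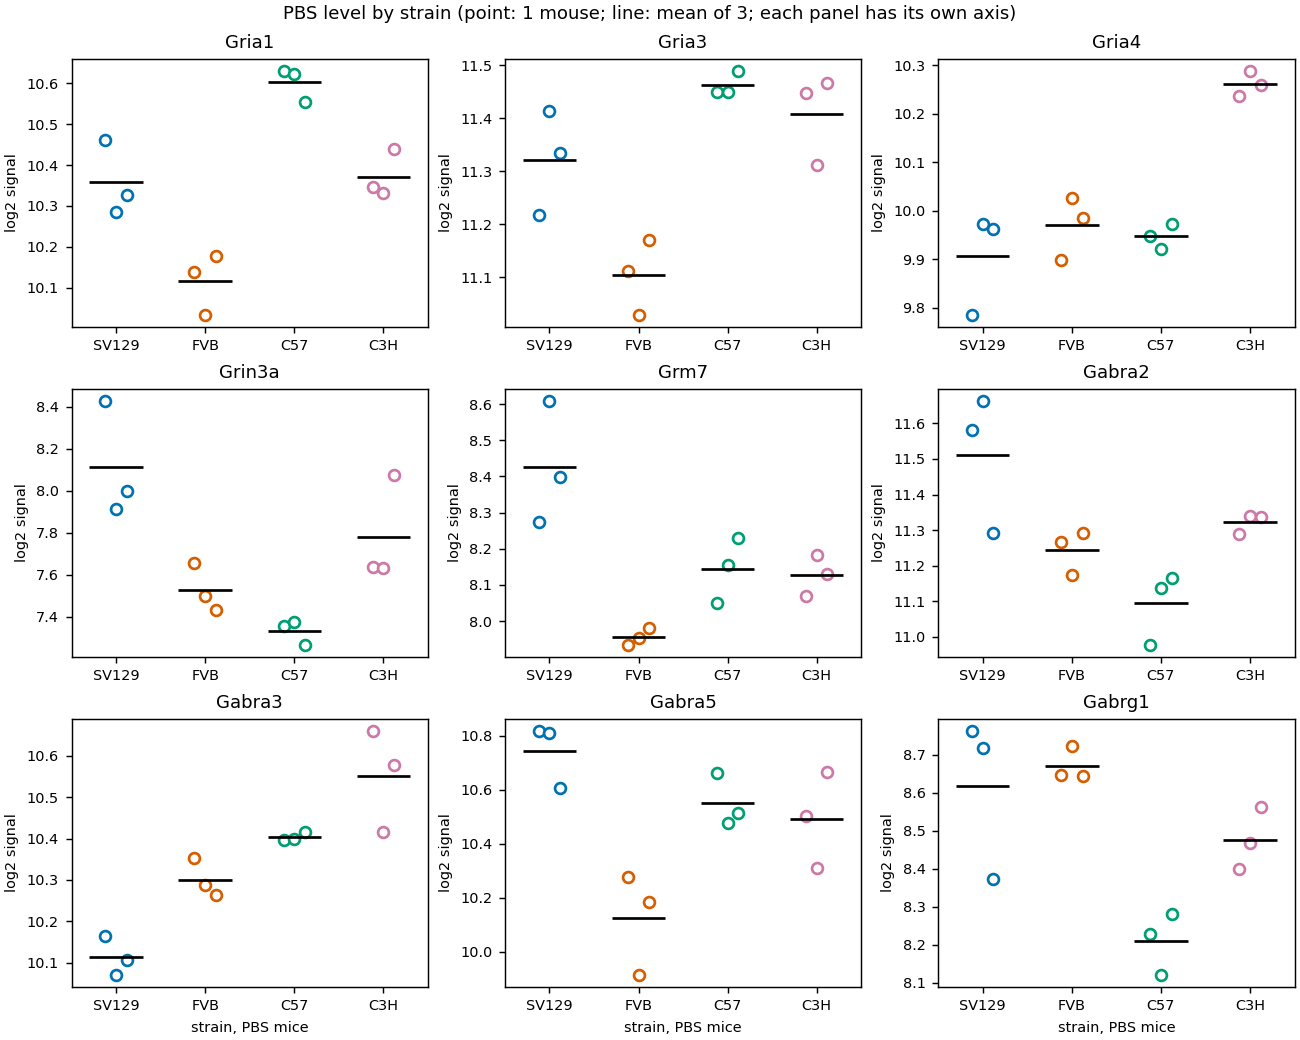
Log2 signal (y axes, 1 scale per panel) of the 9 subunit genes that passed the F-test of the PBS groups, by strain (x axes). Points are PBS mice and lines are means of 3. FVB is lowest for Gria1, Gria3, Grm7 and Gabra5, C57 for Grin3a, Gabra2 and Gabrg1, and SV129 for Gria4 and Gabra3.

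FVB mice had the lowest AMPA signals for Gria1 and Gria3. Gria1 in PBS mice was 10.14, 10.03 and 10.18 in FVB, 10.46, 10.28 and 10.33 in SV129, 10.35, 10.33 and 10.44 in C3H and 10.63, 10.62 and 10.55 in C57. FVB lay below and C57 above every array of the other strains, and SV129 and C3H overlapped. The F-test gave an adjusted p of 0.000466 in limma, and FVB minus C57 was -0.49 ± 0.069 (adjusted p 0.000104). C57 also differed from SV129 and from C3H (adjusted p 0.0316 and 0.0477). FVB missed the threshold against SV129 (0.054) and C3H (0.0552).

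Gria3 in PBS mice was 11.11, 11.03 and 11.17 in FVB, 11.22, 11.41 and 11.34 in SV129, 11.45, 11.31 and 11.47 in C3H and 11.45, 11.45 and 11.49 in C57. FVB lay below all other arrays, and the other strains were close to each other. The F-test gave an adjusted p of 0.00677 in limma. FVB minus C57 was -0.36 ± 0.073 (adjusted p 0.00301) and FVB minus C3H was -0.31 ± 0.073 (adjusted p 0.0262).

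Gria4 was highest in C3H, at 10.24, 10.29 and 10.26, against 9.79, 9.97 and 9.96 in SV129, 9.90, 10.03 and 9.98 in FVB and 9.95, 9.92 and 9.97 in C57. C3H lay above every other array, while the other 3 strains overlapped. Its F-test had an adjusted p of 0.00573 in limma. SV129 minus C3H was -0.35, FVB minus C3H -0.29 and C57 minus C3H -0.31, with adjusted p of 0.00782, 0.0351 and 0.00964.

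Grin3a had the widest spread of PBS means of the list, 0.779 between SV129 and C57. It was 8.43, 7.92 and 8.00 in SV129, 7.64, 7.63 and 8.07 in C3H, 7.65, 7.50 and 7.43 in FVB and 7.36, 7.38 and 7.27 in C57. SV129 overlapped C3H only, and C57 lay below all others. Across the PBS groups the adjusted p was 0.00122 in limma. SV129 minus C57 was 0.78 ± 0.13 and SV129 minus FVB 0.58 ± 0.13, with adjusted p of 0.000443 and 0.0103. C57 minus C3H was -0.45 (adjusted p 0.0384). C3H did not differ from SV129 or FVB past the threshold.

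Grm7, a presynaptic receptor of low glutamate affinity, was 8.27, 8.61 and 8.40 in SV129, 8.05, 8.15 and 8.23 in C57, 8.07, 8.18 and 8.13 in C3H and 7.93, 7.95 and 7.98 in FVB. SV129 lay above and FVB below every other array. In limma the F-test had an adjusted p of 0.00153, and SV129 exceeded FVB by 0.47 ± 0.076 (adjusted p 0.000707), C57 by 0.28 (0.0239) and C3H by 0.30 (0.0373). A second, dimmer Grm7 probe set had its highest PBS mean in C57, 7.56, and its lowest in C3H, 7.16. With the mean of both probe sets the F-test had an adjusted p of 0.109, so the probe sets disagree on the order of strains.

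Of the GABA subunit genes, Gabra3 was lowest in SV129, at 10.16, 10.07 and 10.11, and higher in FVB at 10.35, 10.29 and 10.26, in C57 at 10.40, 10.40 and 10.42 and in C3H at 10.66, 10.42 and 10.58. SV129 lay below all other arrays. Its adjusted p across the PBS groups was 0.00149 in limma. SV129 minus C3H was -0.44 ± 0.072 (adjusted p 0.00087) and SV129 minus C57 was -0.29 (0.0135). FVB, C57 and C3H did not differ from each other past the threshold.

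Gabra5 was lowest in FVB, at 10.28, 9.92 and 10.18, against 10.82, 10.81 and 10.60 in SV129, 10.66, 10.48 and 10.51 in C57 and 10.50, 10.31 and 10.66 in C3H. FVB lay below all other arrays. The F-test gave an adjusted p of 0.00677 in limma. SV129 exceeded FVB by 0.62 ± 0.12 (adjusted p 0.00338), and FVB minus C57 was -0.43 (0.0284). Without FVB PBS array 2, the lowest of its group, the F-test gave an adjusted p of 0.0506.

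Gabrg1 and Gabra2 were lowest in C57 among PBS mice. For Gabrg1 the strain means were 8.67 in FVB, 8.62 in SV129, 8.48 in C3H and 8.21 in C57, and the C57 arrays lay below all others. Across strains the adjusted p was 0.027 in limma. FVB minus C57 was 0.46 ± 0.11 and SV129 minus C57 0.41 ± 0.11, with adjusted p of 0.0135 and 0.0292, while C3H and C57 did not differ past the threshold (0.192). The F-test no longer passed without FVB PBS array 2 or without any 1 of the 3 C57 PBS arrays (adjusted p 0.0521 to 0.126), or with an ordinary linear model (0.0532).

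Gabra2 in PBS mice was 11.58, 11.66 and 11.29 in SV129, 11.29, 11.34 and 11.34 in C3H, 11.27, 11.17 and 11.29 in FVB and 10.98, 11.14 and 11.16 in C57. C57 lay below all other arrays. The F-test gave an adjusted p of 0.0374 in limma, and SV129 minus C57 was 0.42 ± 0.10 (adjusted p 0.0119). No other pair of strains passed. The F-test did not pass after leaving out SV129 PBS array 1 or 2, FVB PBS array 2, any C57 PBS array, or C3H PBS array 2 or 3 (adjusted p 0.0508 to 0.145). Nor did it pass with quantile normalization (0.0544), an ordinary linear model (0.0604), or SV129 PBS array 1 and C3H CBE array 1 left out together (0.118).

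Between C57 and C3H the threshold was also passed by Gabrb1 and Gabbr2, whose F-tests missed it (adjusted p 0.0656 and 0.0679 in limma). Gabrb1 in PBS mice was 9.89, 9.62 and 9.83 for SV129, 9.56, 9.55 and 9.72 for FVB, 9.56, 9.58 and 9.56 for C57 and 9.92, 9.74 and 9.98 for C3H. All C57 arrays lay below all C3H arrays, while C57 overlapped FVB and C3H overlapped SV129. C57 minus C3H was -0.31 ± 0.093 (adjusted p 0.0476 in limma). Gabbr2 was 11.83, 11.81 and 11.88 for SV129, 11.98, 11.94 and 11.87 for FVB, 11.82, 11.79 and 11.71 for C57 and 11.983, 11.992 and 11.998 for C3H. Again all C57 arrays lay below all C3H arrays, and C57 overlapped SV129. C57 minus C3H was -0.22 ± 0.061 (adjusted p 0.0359 in limma).

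The CBE mice are other samples in which the order of strains can be read again, though their spread entered the PBS test. A sequence difference under a probe would be present in both sets of mice, so a kept order cannot tell it from a difference in RNA. For each of the 9 genes the strain with the lowest PBS mean also had the lowest CBE mean. Among the 2883 genes that passed the PBS test this held for 65.8%. The strain with the highest mean was the same for 6 of the 9, and for 67.7% of the 2883. For Gria1, the CBE means were 10.04 in FVB and 10.48 in C57, the lowest and the highest, as with PBS. For Gria4, C3H stayed highest with 10.16, and for Gabra5, FVB stayed lowest with 9.98. The exceptions at the top were Grin3a, Gabra2 and Gabrg1, whose highest CBE means were in C3H, FVB and C3H.

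Other genes of glutamate and GABA transmission were taken from 5 lists, of which 69 of 77 genes were measured. None of the 69 passed the threshold for CBE in the mean of 4 strains or in any strain in limma, nor in the F-test of equal changes. An ordinary linear model also called 0 for the mean of 4 strains. At an unadjusted p under 0.05, 7 passed in the mean of 4 strains, 10.1%, with 5 lower, beside 10.7% of all genes. In SV129 11 passed, beside 13.0% of all genes. Without SV129 PBS array 1, 1 of the 69 passed for the mean of 4 strains.

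In the F-test of the PBS groups 11 of the 69 genes passed, beside 13.0% of all genes. Of 26 genes for auxiliary subunits and scaffold of glutamate receptors 5 passed. They included Cacng3, a partner of AMPA receptors, with PBS means of 10.93 in FVB, 11.17 in SV129, 11.35 in C3H and 11.55 in C57 (adjusted p 4.41e-05 in limma). Neto2, a partner of kainate receptors, was highest in SV129 at 10.29 (adjusted p 0.00226). The scaffold genes Shank1 and Dlgap1 had adjusted p of 0.00388 and 0.00471. Cacng3 was lowest in FVB and highest in C57, the strains with the lowest and highest Gria1 and Gria3. The order differed for others: Shank1 was lowest in C57 at 10.50 and Dlgap1 lowest in C3H at 10.91. Gria4 was lowest in SV129 and highest in C3H.

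Of 11 genes for glutamate release, uptake and metabolism 5 passed. Glul, which makes glutamine from glutamate in astrocytes, was lowest in FVB at 11.88 (adjusted p 0.000936), and Glud1 lowest in C57 at 10.51 (0.00134). The vesicular transporters Slc17a6 and Slc17a8 had adjusted p of 0.0118 and 0.0188 in limma. Of the 13 genes for GABA receptor partners and chloride transport 1 passed, Slc12a2, the chloride importer, which was highest in FVB at 9.35 (adjusted p 0.00305). None of the 8 genes for GABA synthesis and uptake and none of the 11 further receptor subunits passed in limma, and 1 and 0 of them had an unadjusted p under 0.05.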

How the data were processed

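Cortex RNA of 24 mice was hybridised to 24 arrays. Per the labels' protocols, a 1 mm coronal slice holding the cortex was frozen and 100 ng of total RNA was labelled for each array. The deposited values are log2 signal per probe set; Partek and RMA are named in the submitters' processing notes, without versions. No source used here names the log base; base 2 was inferred because it puts the maximum, 14.09, at 17442 on the linear scale, within a 16-bit scanner's 65535. Of 41034 probe sets, 23521 had 1 gene symbol in the platform annotation, 1814 several and 15699 none. The brightest probe set per symbol left 22180 genes.

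The deposited log2 values were fitted with limma 3.58.1 (R 4.3.3), with 8 group means in 1 fit, moderated variances (residual degrees of freedom 16, prior 5.1), two-sided p and Benjamini-Hochberg adjustment over 22180 genes within a contrast at 0.05. The 6 strain pairs were adjusted separately. The procedure was tested on simulated data with 200 changed genes. With 3 arrays against 3 the smallest p of an exact permutation test is 0.1. Precision is limited by how many arrays there are. The p-values set a difference against the spread between arrays, pooled over the 8 groups and moderated across genes. Arrays of the other strains thus enter a single-strain p. Alternatives were quantile normalization, median centring, a filter on dim probe sets (a mean above 4.18), the mean of a gene's probe sets, an ordinary linear model, eBayes with trend and robust settings, the replicate number as a block, fewer strains or arrays, and each array left out.

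Receptor genes are named with every array's value where they passed in a contrast; where none did, the 2 of smallest p and the 2 of largest change are, and others by ranges and counts. At most 4 genes per pathway list and contrast are named, in order of p, and marker genes only where they passed. Slc17a6, which did not pass, is 1 of the thalamus markers and is named because it is also in a pathway list. The receptor genes and the lists were chosen with earlier results of these data known. Promoter windows came from RefSeq, GRCm38.p6.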

Additional observations from a re-analysis of the deposited data

How the results depend on the processing

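For single subunit genes, 217 results were recomputed under the alternatives, giving 7130 values, of which 7077 kept their side of the threshold, 21 lost a call and 32 gained a call. The sign turned for 0 of the values that passed in either fit; changes that passed in neither could change sign. The count of subunit genes past the threshold for the mean of 4 strains, 1, became 0 with quantile normalization, with the ordinary linear model and with the mean of FVB, C57 and C3H, and stayed at 1 to 1 with any array left out. In SV129 the count of 0 became 3 with median centring and 1 with the filter on dim probe sets, and ran from 0 to 1 with an array left out, while the count over all genes ran from 7 to 219. For the pathway lists the count for the mean of 4 strains ran from 0 to 1 with an array left out, and in the PBS test the count of 9 subunit genes ran from 6 to 11 with an array left out and from 8 to 13 under the others. With SV129 PBS array 1 and C3H CBE array 1 left out together, an alternative chosen after seeing the data, the counts were 1, 0 and 11 for the mean, SV129 and the PBS test, and Gabrg1 had a mean change of -0.26 (adjusted p 0.0364 in limma).

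Same-numbered mice were not clearly more alike: 3 of 12 same-numbered pairs correlated above 0.1, over a range of -0.193 to 0.196. Different-numbered pairs ran from -0.207 to 0.236. With 3 arrays per group this check cannot exclude a pairing, and the labels name none. With the replicate number as a block the counts were 1 for the mean of 4 strains, 0 in each strain and 13 in the PBS test. Dim probe sets can hide or shrink a change.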

Other observations

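Of the subunit genes, 4 had a second, dimmer probe set: Grin2b, Grin2c, Grin2d and Grm7. The second Grin2b probe set, at 3.21 to 4.53 over the arrays, had PBS means of 3.91 in FVB, 3.36 in SV129, 3.32 in C57 and 3.26 in C3H. Its CBE minus PBS was 0.44 ± 0.093 in FVB and 0.18 ± 0.046 in the mean of 4 strains, where the brighter Grin2b probe set had -0.030 ± 0.033. The values of this probe set lie near or below the median of all probe sets, 4.18. The second Grm7 probe set had a mean change of 0.080 ± 0.055, against 0.031 ± 0.038 for the brighter.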
